A study of Homo sapiens with 6 samples.

Results

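The 9 genes described here serve the presentation of peptides by MHC class I: HLA-B, HLA-C, HLA-E, HLA-F, B2M, TAP1, TAP2, TAPBP and NLRC5. They were listed by name because K562, a human erythroleukemia cell line, is known for little class I on its surface, and were looked up by gene symbol among the transcripts counted by the authors. A counted transcript was found for 7 of the 9 genes, out of 37111 genes in all. For HLA-B and B2M no counted transcript identifier matched the annotation used here, so neither is analysed here beyond its promoter. Of the 7 genes found, 4 (HLA-E, TAP1, TAPBP and NLRC5) had counts in both assays, HLA-C and HLA-F had counts in RNA-seq alone, and TAP2 had none in any library.

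The cells were untreated K562 from 1 flask, which gave 4 libraries of total, rRNA-depleted RNA and 2 libraries of nascent RNA by PRO-seq. PRO-seq reads come from RNA still held by engaged RNA polymerase and follow transcription, whereas RNA-seq measures the RNA present at steady state. The ratio of RNA-seq to PRO-seq is, for a transcription unit (TU) at equilibrium, proportional to RNA half-life. Because the libraries share a flask, p-values measure the spread between libraries and not between cultures. K562 is 1 cell line, and its transcripts were counted against the reference genome, whose HLA sequences need not be those of these cells.

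Class I molecules display peptides from inside the cell to CD8+ T cells and to natural killer cells. A heavy chain encoded by an HLA gene pairs with beta-2 microglobulin, the product of B2M. Peptides made by the proteasome are carried into the endoplasmic reticulum by the TAP1 and TAP2 heterodimer, and tapasin, the product of TAPBP, bridges that transporter to the empty heavy chain. NLRC5 is the class I transactivator, which acts at the promoters of class I genes through factors bound there.

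The promoters are shown so that the sequences in front of the members can be compared, and of the 5 printed, those of TAP1 and TAPBP belong to members with PRO-seq counts. RefSeq promoter sequences on GRCh38.p14, from 250 bases before to 50 after the start, were at hand for 7 of the 9 members, the exceptions being HLA-E and NLRC5. Short motifs were searched on both strands. They were 2 forms of the interferon response element (GAANNGAAA and GAAANNGAA, which can overlap each other), the CCAAT box bound by NF-Y (CCAAT), the core of the site for CREB and ATF factors (TGACG), the NF-kB motif (GGGANTNCC) and the GC box (GGGCGG). The letters were settled after some of these promoters had been seen, so a match is a description and not a test. Below, capitals mark the motif matches, each sequence runs 5′ to 3′ along its gene, and the genes are members with a counted transcript.
HLA-C (chr6:31272043-31272342, minus strand): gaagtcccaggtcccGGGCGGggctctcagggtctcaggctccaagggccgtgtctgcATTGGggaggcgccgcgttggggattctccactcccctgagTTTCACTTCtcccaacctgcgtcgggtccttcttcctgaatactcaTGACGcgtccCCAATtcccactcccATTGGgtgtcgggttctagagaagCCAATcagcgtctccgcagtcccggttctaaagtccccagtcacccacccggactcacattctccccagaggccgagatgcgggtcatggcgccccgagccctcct
HLA-F (chr6:29723184-29723483, plus strand): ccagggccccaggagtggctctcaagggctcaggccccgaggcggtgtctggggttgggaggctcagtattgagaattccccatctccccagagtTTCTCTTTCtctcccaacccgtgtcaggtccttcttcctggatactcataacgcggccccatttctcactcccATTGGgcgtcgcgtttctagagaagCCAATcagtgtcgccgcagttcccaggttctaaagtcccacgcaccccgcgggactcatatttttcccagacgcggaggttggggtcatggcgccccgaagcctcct
TAP1 (chr6:32853655-32853954, minus strand): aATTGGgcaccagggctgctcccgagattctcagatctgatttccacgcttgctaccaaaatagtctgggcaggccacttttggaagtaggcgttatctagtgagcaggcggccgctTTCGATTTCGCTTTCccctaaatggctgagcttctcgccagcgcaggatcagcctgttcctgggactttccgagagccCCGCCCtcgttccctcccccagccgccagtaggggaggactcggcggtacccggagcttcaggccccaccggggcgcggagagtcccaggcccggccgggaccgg
TAP2 (chr6:32838690-32838989, minus strand): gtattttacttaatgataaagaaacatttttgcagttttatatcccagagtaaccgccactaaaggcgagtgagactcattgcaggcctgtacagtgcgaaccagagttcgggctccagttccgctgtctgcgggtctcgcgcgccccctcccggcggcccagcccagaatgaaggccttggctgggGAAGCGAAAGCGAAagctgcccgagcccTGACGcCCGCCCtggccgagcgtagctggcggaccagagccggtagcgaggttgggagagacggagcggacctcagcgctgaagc
TAPBP (chr6:33314029-33314328, minus strand): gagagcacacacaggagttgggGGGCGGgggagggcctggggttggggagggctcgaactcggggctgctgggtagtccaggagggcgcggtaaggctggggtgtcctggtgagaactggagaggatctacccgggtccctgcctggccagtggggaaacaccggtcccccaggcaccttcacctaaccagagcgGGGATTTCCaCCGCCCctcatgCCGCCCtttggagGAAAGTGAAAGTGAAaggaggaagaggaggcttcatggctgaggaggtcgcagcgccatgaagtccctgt

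The promoter of HLA-C held form 1 of the interferon motif 151 bases before the start, TGACG 105 bases before and CCAAT 56 bases before. HLA-B had the same 3 motifs at nearly the same places, at 155, 106 and 56 bases before the start. In HLA-F the CCAAT box lay 57 bases before the start and form 2 of the interferon motif 155 bases before it, and TGACG was not found in this window. The HLA-F window is that of the RefSeq start, whereas the counted HLA-F transcript begins further downstream in the gene than most annotated HLA-F transcripts, so it is not the promoter of that transcript. Among the 35116 promoters of 300 bases in the table, 14.5% held at least one of the interferon forms, 34.6% CCAAT, 24.6% TGACG, 4.35% the NF-kB motif and 45.0% the GC box. All 7 members with a promoter in the table held an interferon form, although the alternative TAP1 promoter, its second entry, held neither. In B2M, form 2 occurred 144 and 138 bases before the start, in TAP1 133 and 127 bases before, and in TAPBP 20 and 14 bases before. TAP2 held form 1 at 63 and form 2 at 58 bases before the start. The promoter window of TAP1 overlapped at its far end with that of PSMB9, an immunoproteasome subunit gene on the other strand.

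HLA-E encodes a nonclassical heavy chain that presents leader peptides of other class I molecules to natural killer cell receptors. Its counted transcript ENST00000376630 (ENSG00000204592) lies at chr6:30457286-30461971 on the plus strand of GRCh37, with 8 exons and 2548 exon bases. In RNA-seq it had 884, 851, 599 and 613 counts in replicates 1 to 4, or 89.2, 81.4, 90.0 and 80.3 TPM, a mean of 85.2 TPM ± 5.10 (SD, n = 4). In PRO-seq it had 78 and 86 counts, or 81.8 and 88.5 TPM, a mean of 85.2 TPM ± 4.72 (SD, n = 2). HLA-E thus stood at the same TPM in both assays, above 89.2% of mRNAs in RNA-seq and above 88.8% in PRO-seq.

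Since TPM is a share of each assay's total, equal TPM does not mean a ratio equal to that of other genes. Relative to the median mRNA, HLA-E had a log2 RNA-seq over PRO-seq of 1.30 ± 0.11 (SE), 2.46-fold above it, with an adjusted p of 4.18e-31 by the quasi-likelihood test of edgeR, adjusted over all TUs by the Benjamini-Hochberg method. For each of the 8 combinations of an RNA-seq and a PRO-seq library, the log2 TPM ratio relative to the median mRNA was also computed. It is not the fitted value, which can lie outside its range. This TPM ratio of HLA-E lay between 1.12 and 1.27, above 0 in 8 of 8. Reads shared with other class I genes were a small part of the transcript: 2.30% of its 75-base exon windows occurred in transcripts of other genes of the reference. Their part in its level was not tested.

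HLA-C encodes a classical heavy chain, which is also a ligand of killer cell immunoglobulin-like receptors. The transcript counted for it, ENST00000376237 (ENSG00000204525, chr6:31236526-31239882, minus strand, GRCh37), is annotated as a substrate of nonsense-mediated decay, with 8 exons and 1538 exon bases. RNA-seq gave it 20, 22, 18 and 20 counts, or 3.34, 3.49, 4.48 and 4.34 TPM, a mean of 3.91 TPM ± 0.580 (SD, n = 4). Neither PRO-seq library had a count. All 4 RNA-seq libraries were thus well above 0 while both PRO-seq libraries were at 0.

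A count of 0 over both PRO-seq libraries allows up to 3 counts, or 2.44 TPM on the 2357 bases counted. Against that floor, RNA-seq over PRO-seq of HLA-C was at least 3.78-fold higher than that of the median mRNA, which covers counting error only. At the ratio of the median mRNA, its RNA-seq level would have come with 11.3 PRO-seq counts. Of the 8222 mRNAs with at least as many RNA-seq counts and no same-strand overlap in PRO-seq, 11 (0.134%), HLA-C among them, had no PRO-seq count, a comparison chosen after the value of HLA-C was seen. These mRNAs had no upper limit on counts and were not matched for PRO-seq length. The share among mRNAs as low and as short as HLA-C was not computed. Exact 75-base matches elsewhere in the reference genome covered 1.71% of its PRO-seq bases. How far reads of these cells' own HLA-C matched the reference was not tested.

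HLA-F encodes a nonclassical heavy chain, found largely inside cells. Its counted transcript ENST00000465459 (ENSG00000204642, chr6:29692831-29706305, plus strand, GRCh37) has 5 exons and 623 exon bases. It had 1 RNA-seq count in replicate 1, 1 in replicate 3, none in replicates 2 and 4, and none in PRO-seq. Both assays were at or below the floor of 3 counts, which is 0.354 TPM in RNA-seq and 0.461 TPM in PRO-seq, and no ratio is given. An antisense TU, HLA-F-AS1, covered 87.6% of its PRO-seq bases on the other strand. HLA-G, another nonclassical heavy chain gene, was at 0 in all 6 libraries.

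TAP1 encodes a subunit of the peptide transporter. Its counted transcript ENST00000354258 (ENSG00000168394, chr6:32812986-32821481, minus strand, GRCh37) has 11 exons and 2685 exon bases. In RNA-seq it had 137, 142, 87 and 91 counts, or 13.1, 12.9, 12.4 and 11.3 TPM, a mean of 12.4 TPM ± 0.805 (SD, n = 4). In PRO-seq it had 21 and 22 counts, or 10.8 and 11.1 TPM. The 2 assays were close in TPM and did not overlap.

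RNA-seq over PRO-seq of TAP1 was 2.79-fold above the median mRNA, a log2 value of 1.48 ± 0.22 (SE) with an edgeR adjusted p of 3.7e-11. In the 8 library combinations the log2 TPM ratio relative to the median mRNA lay between 1.21 and 1.48. TAP1 ranked above 63.4% of mRNAs in RNA-seq and above 52.5% in PRO-seq. All of its PRO-seq bases lie inside PSMB9 on the opposite strand, and whether the counts used strand is not stated in the sources at hand. Over all mRNA TUs wholly covered on the other strand alone, 22.3% of 820 had no PRO-seq count, against 95.8% of the 639 wholly covered on the same strand and 9.82% of the 10901 not covered.

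TAP2 encodes the partner subunit of TAP1. Its counted transcript ENST00000652259 (ENSG00000204267, chr6:32789610-32806516, minus strand, GRCh37) was at 0 in all 6 libraries. A longer TU on the same strand, ENSG00000250264, covered 100% of the PRO-seq bases and 80.6% of the exon bases of TAP2. That TU had 32 and 43 PRO-seq counts and no RNA-seq count. As HTSeq by default sets aside a read that overlaps more than 1 counted feature, a 0 for TAP2 does not show that TAP2 RNA was absent, and its level is not known from these counts.

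TAPBP encodes tapasin. Its counted transcript ENST00000434618 (ENSG00000231925, chr6:33267471-33281855, minus strand, GRCh37) has 8 exons and 3450 exon bases. In RNA-seq it had 399, 392, 287 and 300 counts, or 29.7, 27.7, 31.9 and 29.0 TPM, a mean of 29.6 TPM ± 1.74 (SD, n = 4). In PRO-seq it had 299 and 326 counts, or 86.4 and 92.4 TPM. Every PRO-seq library stood above every RNA-seq library.

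RNA-seq over PRO-seq of TAPBP was 1.24-fold below the median mRNA, a log2 value of -0.30 ± 0.08 (SE) with an edgeR adjusted p of 0.00051, but it turned to 0.27 when the median of all TUs was the reference. The 8 library combinations gave values between -0.48 and -0.30. The call was lost without a filter on low counts, with a log2 value of -0.079 and an adjusted p of 0.445 by edgeR. It held, at -0.97, where a level over 10 TPM in PRO-seq and over 1 TPM in RNA-seq was required. TAPBP ranked above 89.6% of mRNAs in PRO-seq and above 75.1% in RNA-seq.

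NLRC5, the transactivator, is the only member found here that lies outside the MHC. Its counted transcript ENST00000262510 (ENSG00000140853, chr16:57023410-57117436, plus strand, GRCh37) has 49 exons and 6822 exon bases. RNA-seq gave it 2, 5, 1 and 1 counts, or 0.0754, 0.179, 0.0561 and 0.0489 TPM. PRO-seq gave it 12 and 8 counts over 93027 bases, or 0.499 and 0.326 TPM. NLRC5 was low in both assays, above 30.3% of mRNAs in RNA-seq and 22.4% in PRO-seq.

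RNA-seq over PRO-seq of NLRC5 did not pass the test, with a log2 value of -0.77 ± 0.65 (SE) and an edgeR adjusted p of 0.289. The library combinations ran from -2.20 to 0.39, below 0 in 7 of 8. Leaving out RNA-seq replicate 2 moved the value to -1.47 and leaving out PRO-seq replicate 1 moved it to -0.42. At 9 RNA-seq counts in all, a ratio near that of the median mRNA and one well below it were not told apart.

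**Figure D1:**
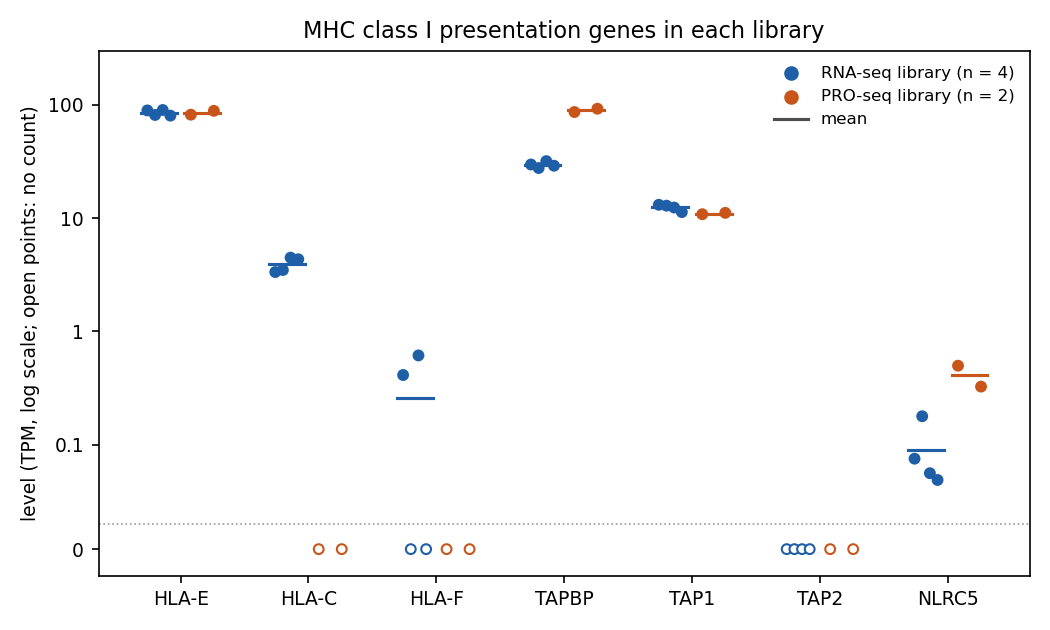
Level in TPM (log scale) of the 7 members with a counted transcript, 1 point per library, with the mean of the RNA-seq (n = 4) and PRO-seq (n = 2) libraries as bars and open points for libraries without a count. HLA-E and TAP1 stand at about the same TPM in both assays, TAPBP is higher in PRO-seq, and HLA-C has counts in RNA-seq alone.

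Of the 4 members tested, 2 (HLA-E and TAP1) were above the median mRNA, 1 (TAPBP) was below it and 1 (NLRC5) was not called. Over all 21100 TUs tested, 31.6% were called above and 37.3% below, and over the 14965 mRNAs 42.5% and 32.8%, and with 4 members tested their counts are no result beyond that background. The median log2 value was 0.50 for the members, -0.50 for all TUs and 0.03 for mRNAs. Of all calls, 45.8% were above with the median mRNA as reference and 59.3% with the median of all TUs, which raised the median log2 value of all TUs by 0.56.

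**Figure D2:**
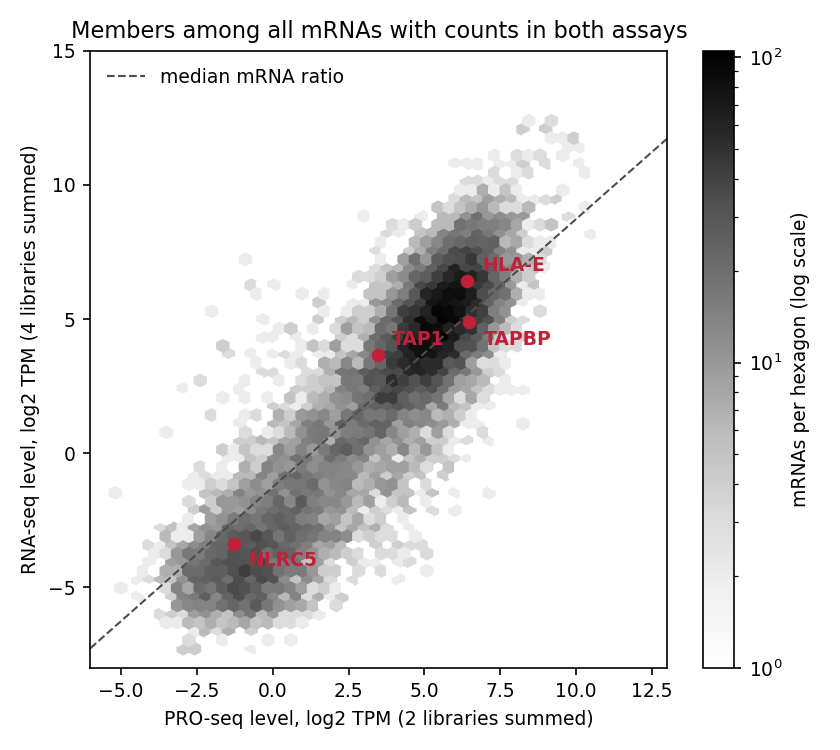
PRO-seq against RNA-seq level, both in log2 TPM from summed counts, for the mRNAs with counts in both assays (grey, darker for more mRNAs) and the 4 members tested (red). The dashed line is the ratio of the median mRNA; HLA-E and TAP1 lie above it, TAPBP just below and NLRC5 below in the sparse low range.

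In RNA-seq the order of mean levels was HLA-E, TAPBP, TAP1, HLA-C, HLA-F and NLRC5. The libraries of neighbouring genes did not overlap except for HLA-F and NLRC5, which are both too low to be ordered. HLA-E exceeded TAPBP 2.88-fold, and TAPBP exceeded TAP1 2.38-fold. In PRO-seq the order was TAPBP, HLA-E, TAP1 and NLRC5, and TAPBP and HLA-E overlapped, with means 1.05-fold apart. TAP1 was 7.75-fold below HLA-E in PRO-seq, and NLRC5 was 26.6-fold below TAP1.

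The 4 members tested form 6 pairs, and the ratio within a pair does not depend on the reference chosen for the fit. HLA-E over TAPBP had a log2 TPM ratio between 1.47 and 1.58 in the RNA-seq libraries and of -0.08 and -0.06 in the PRO-seq libraries. The mean difference between assays was 1.60 on the log2 scale. TAP1 over TAPBP differed by 1.77 in the same direction, with -1.25 ± 0.130 (SD, n = 4) in RNA-seq and -3.02 ± 0.0407 (SD, n = 2) in PRO-seq. TAP1 over HLA-E differed by only 0.18.

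The assays did not overlap in 5 of the 6 pairs, the exception being NLRC5 over TAPBP. With 4 libraries against 2, the two-sided exact permutation test gave p = 0.133 for each of those 5 pairs and an adjusted p of 0.16 over the 6 pairs, and this design cannot reach 0.05. The pairs were chosen after the levels had been seen.

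By Euclidean distance in log2 PRO-seq TPM and log2 RNA-seq TPM, the mRNA nearest to HLA-E was GAR1, at a distance of 0.0168. METTL18 was nearest to TAPBP at 0.00879, PNKD to TAP1 at 0.0329 and TTC39C to NLRC5 at 0.0191. Each was the closest of 14964 mRNAs over these 2 values. Between 148 and 409 mRNAs lay within a distance of 0.5 of a member, so these pairs of levels were common ones.

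The other genes of peptide loading and of the proteasome lists all had counts in both assays. For the counts of calls in this and the following lists, the background is 42.5% above and 32.8% below over all mRNAs tested. The lists were not tested as sets. In the list of 10 genes of peptide loading and trimming, 7 were called above the median mRNA, 2 below and 1 was not called, with a median log2 value of 1.84. SEC61G and SEC61B, subunits of the translocation channel, were highest, with log2 values of 4.25 ± 0.09 and 4.09 ± 0.09 (SE). The chaperone gene HSPA5 was lowest at -0.86 ± 0.05, with 703 and 718 TPM in PRO-seq and a mean of 159 TPM ± 2.12 (SD, n = 4) in RNA-seq. ERAP2, an aminopeptidase that trims peptides, was at -0.65 ± 0.19 with an edgeR adjusted p of 0.00106, a call that was lost with DESeq2 (adjusted p of 0.0546) and with the median of all TUs as reference (-0.073).

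Of the 5 immunoproteasome genes, 4 were called above and none below, with a median of 2.09. PSMB9 was at 5.04 ± 0.29 (SE), with 239 RNA-seq counts and 12 PRO-seq counts, and PSME1, an activator subunit, at 3.94 ± 0.18. DESeq2 gave these 2 genes larger SEs, of 0.46 and 0.30. The counted PSMB9 transcript has 792 exon bases in a span of 15450 bases, and stood at 2.14 and 1.05 TPM in PRO-seq. It shared 17.6% of its exon bases and 9.45% of its PRO-seq bases with other TUs on the same strand. The 4 standard proteasome counterparts were all called above, with a median of 3.84, led by PSMB6 at 6.02 ± 0.19 and PSMB7 at 4.39 ± 0.05. PSMB6 had only 10 PRO-seq counts, and its SE was 0.46 by DESeq2. In summed level the immunoproteasome list held 318 to 339 TPM in the RNA-seq libraries and the standard list 2040 to 2094 TPM. In PRO-seq the sums were 125 and 165 TPM against 332 and 353 TPM.

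The interferon gamma list is named for a pathway that raises class I expression in many cells. It also holds IFNAR1, IFNAR2, TYK2, STAT2 and IRF9, which serve type I interferon signalling. The list had counts in both assays for every TU except that of IFNAR2. Of its 12 TUs tested, 7 were called above, 2 below and 3 not called, with a median of 0.57. IFNGR2, a receptor chain, was at 1.73 ± 0.16 (SE). Both counted TUs of IRF1, a transcription factor that acts on class I promoters, were called below, at -1.26 ± 0.14 and -3.79 ± 0.71. The second is annotated as a retained intron and had 12 RNA-seq and 14 PRO-seq counts. Its value need not be that of the coding IRF1 mRNA. IFNAR2 had 162 RNA-seq counts and none in PRO-seq, where another TU on the same strand covered 100% of its bases.

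The promoter-binding partners through which NLRC5 acts were expressed: all 8 had counts in both assays, with 4 called above, 2 below and 2 not called, and a median of 0.23. RFXANK was at 3.43 ± 0.10 and ATF1 at 1.46 ± 0.07 (SE). RFXAP was at -0.86 ± 0.25, but at -0.58 and not called without PRO-seq replicate 1 (edgeR adjusted p of 0.123), and at -0.28 and not called with the median of all TUs as reference. NFYA was at -0.19 ± 0.08 but turned to 0.39 with that reference, and was at -0.13 and not called without PRO-seq replicate 1 (edgeR adjusted p of 0.24). In summed level these partners held 321 to 335 TPM in RNA-seq and 367 and 393 TPM in PRO-seq, beside the fraction of 1 TPM of NLRC5 itself.

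Of the 8 genes of polycomb repressive complex 2, a chromatin silencing complex, 7 were called above, none below and 1 was not called, with a median of 0.77. Over all mRNAs tested, 42.5% were called above and 32.8% below. Some of the 7 calls rested on small differences, the smallest at a log2 value of 0.14. RBBP7 was at 2.82 ± 0.06 and EED at 1.92 ± 0.06 (SE).

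Of the 14 other class I and class I-like genes, 8 could be tested, with 4 called above, 2 below and 2 not called. MICA, a stress ligand of the NKG2D receptor, was at 3.79 ± 0.19 (SE), with a mean of 25.2 TPM in RNA-seq and 4.52 and 4.44 TPM in PRO-seq. ULBP1, another ligand of that receptor, was at -2.07 ± 0.57. FCGRT, the neonatal Fc receptor, was at 1.79 ± 0.59 on 16 RNA-seq counts, and its call was lost without RNA-seq replicate 2 (1.41) or without PRO-seq replicate 1 (1.49). The counted FCGRT transcript is annotated as a retained intron, with 383 exon bases in a span of 17965 bases. Its values need not be those of the coding FCGRT mRNA. HFE, an iron regulator, was at -1.16 ± 0.39, and its call was lost without PRO-seq replicate 2 (-1.08) and with the median of all TUs as reference (-0.59). HLA-G and RAET1E had no count in either assay, RAET1L had 5 counts in PRO-seq alone, and ULBP3 and RAET1G had 3 and 1 in RNA-seq alone.

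The 13 class II presentation genes were low, most of all in RNA-seq. Their summed level was 2.30 to 5.39 TPM in the RNA-seq libraries and 43.6 and 33.5 TPM in PRO-seq, of which HLA-DMA alone held 34.2 and 24.6 TPM. Without HLA-DMA the other 12 genes summed to 1.06 to 3.47 TPM in RNA-seq and to 9.46 and 8.90 TPM in PRO-seq. None of the 8 tested was called above and 2 were called below, with a median of -1.46. These were HLA-DMA at -3.20 ± 0.31 (SE), with 14 RNA-seq and 286 PRO-seq counts, and CIITA, the class II transactivator, at -3.80 ± 0.96 on 2 and 12 counts. The counted HLA-DMA transcript is annotated without a defined coding sequence, with 806 exon bases in a span of 19674 bases. It shared 17.95% of its PRO-seq bases with other TUs on the same strand, so its values need not be those of the coding HLA-DMA mRNA. Without PRO-seq replicate 1 CIITA was at -2.79 and not called, with an edgeR adjusted p of 0.0925. HLA-DRB1, HLA-DRB5, HLA-DQA1 and HLA-DQB1 had no RNA-seq count and between 1 and 4 in PRO-seq, and HLA-DRA had 4 in RNA-seq alone.

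HLA-F and TAPBP frame a stretch of 217 counted TUs on chromosome 6 (chr6:29692831-33281855, GRCh37), 144 of them mRNAs, which holds 6 of the members. Of 108 mRNAs tested there, 46 were called above the median mRNA and 36 below. These shares are close to the 42.5% and 32.8% over all mRNAs tested and are no result beyond that background. The median level of its mRNAs was 3.59 TPM in RNA-seq and 10.6 TPM in PRO-seq, beside 2.67 and 8.04 TPM for all mRNAs. The stretch as a whole was therefore not low, although 24 of its mRNAs had no PRO-seq count and 24 no RNA-seq count. The share of all mRNAs without a count was not computed, so these numbers are not read as a trait of the stretch. TAPBP was exceeded by 32 of its mRNAs in PRO-seq and HLA-E by 21 in RNA-seq.

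Highest in PRO-seq among genes that are no members were DDAH2 at 1264 TPM, PPP1R10 at 1096 TPM and the ribosomal protein gene RPS18 at 1085 TPM. Highest in RNA-seq were RPS18 at 16400 TPM, CLIC1 at 4361 TPM and the tubulin gene TUBB at 1265 TPM. PPP1R10 had a log2 RNA-seq over PRO-seq of -4.35 ± 0.05 (SE) and RPS18 of 5.21 ± 0.05.

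The cell line label was checked against markers. The 10 K562 markers summed to 12099 to 12989 TPM in RNA-seq and 1707 and 1777 TPM in PRO-seq, with GATA1 at a mean of 157 TPM and KLF1 at 188 TPM in RNA-seq. TFRC alone held 652 and 675 TPM of the PRO-seq sums. The globin genes HBE1 and HBG2 had no PRO-seq count and 0.231 and 0.211 TPM, respectively. Other TUs on the same strand covered 100% and 99.8% of their PRO-seq bases, so their PRO-seq levels are not known from these counts. Of 10 lymphocyte and monocyte markers, 8 had a matched transcript. LYZ, CD3D and PTPRC reached means of 335, 109 and 72.2 TPM in RNA-seq, and CD3E, CD2, MS4A1 and CD79A stayed at or below 0.307 TPM. The part of other cells in the levels of the members was not tested. Libraries held 5732780 to 9002746 counts on TUs in RNA-seq and 6993816 and 7245632 in PRO-seq. RNA-seq replicates 1 and 3, and replicates 2 and 4, were closer to each other than to the rest, at 1.11 and 1.12 times the variance of counting against 1.74 to 2.11 for the other pairs, and summing each close pair left the members' calls as they were.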

How the data were processed

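Both assays of K562 were analysed, total RNA-seq with 4 libraries and PRO-seq with 2. Per the labels and the methods, the authors trimmed reads with cutadapt, aligned them with HISAT2 to GRCh38 and deposited raw HTSeq counts per transcript, over exons for RNA-seq and over the TU without its ends for PRO-seq. No tool version is stated in the sources at hand, nor whether strand was used. Rows that name no TU took 66.5% to 68.6% of records in RNA-seq, and 86.5% and 88.6% in PRO-seq, and were left out.

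Of 42371 transcripts, 37339 were matched by identifier to GENCODE v44 lifted to GRCh37, which gave lengths, classes and coordinates. GRCh37 lengths can differ from those counted on. For TPM, RNA-seq counts were divided by exon length and PRO-seq counts by the span minus 1000 bp. RNA-seq was tested against PRO-seq with edgeR 4.0.16 in R 4.3.3 (quasi-likelihood test, TMM, length offsets) on TUs with at least 1 summed count in each assay, centred on the median mRNA. A call was an adjusted p under 0.05. Each SE was computed from the edgeR log2 value and the F statistic of its test, and is approximate. For genes with few PRO-seq counts DESeq2 gave larger SEs. Examples are 0.46 against 0.29 for PSMB9, 0.46 against 0.19 for PSMB6 and 0.28 against 0.19 for MICA. On simulated data, a log2 change of 1 in 200 TUs was recovered in 69% of them, among 19048 TUs, with 3 false calls. There all other TUs had the same ratio, the dispersion was fixed, and the changed TUs were mRNAs above a minimum mean count. These rates therefore need not hold for the real data or for members with few counts. Other steps used Python 3.11.15. Alternatives, DESeq2 1.42.0 among them, are given in the closing section.

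The members and lists were chosen with earlier results of these data known. Named besides the members were, per list, up to the 2 called genes highest and 2 lowest in log2 value and those without a count in an assay, the 3 mRNAs highest in each assay between HLA-F and TAPBP, and the mRNA nearest to each member. Markers, and TUs that overlap a member, are named besides. The overlap check, the search for 75-base windows in the genome, the motif letters, the member pairs and the comparison of HLA-C with other mRNAs were chosen after seeing the data. Reads carry no molecular identifiers, so floors cover counting error only. Some genes that these rules would name are not reported here. Protein sequences were not used here.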

Additional observations from a re-analysis of the deposited data

Results flagged for a closer look

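Among the members, named genes and markers reported here with at least 10 RNA-seq counts, the marker GATA1 had 1 RNA-seq library far from the other 3 by Dixon's 95% limit, which chance passes in about 1 of 20 genes. GATA1 was at 179.7 TPM in replicate 3 and between 148 and 152 TPM in the others. No member was set apart in this way.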

How the results depend on the processing

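The calls of HLA-E and TAP1 held under all 17 alternatives, with log2 values from 0.64 to 1.87 and from 0.82 to 2.06. NLRC5 was not called under the 15 alternatives that kept it, from -1.47 to -0.21. TAPBP reversed to 0.27 with the median of all TUs as reference, and was no longer called without a filter on low counts (-0.079) or when a 2-fold difference was tested (-0.30, adjusted p of 1 by edgeR). Those 3 settings left 0 members below. With leave-one-out TAPBP ran from -0.39 to -0.32. It was called below at -0.85 with 10 or more summed counts in each assay. Requiring over 10 TPM in PRO-seq and over 1 TPM in RNA-seq gave -0.97, also called below. Members above numbered 3 with no filter, where HLA-C was added, and with the median of all TUs, where TAPBP was. Of the 63 pathway list TUs tested, 37 were above and 10 below, beside 42.5% and 32.8% of all mRNAs tested. The number below was 19 at 10 or more summed counts in each assay, 6 with the median of all TUs and 5 for a 2-fold difference. For the list genes named above, a call lost with another reference, with DESeq2 or without 1 library is given beside the value. Among these named genes, the calls of ERAP2, HSPA5, NFYA, RFXAP, FCGRT and HFE were also lost for a 2-fold difference. Losses among list genes that are not named are not given. List calls above numbered 35 with DESeq2 and 34 without RNA-seq replicate 2. NFYA reversed to 0.39 with the median of all TUs and to 0.035 with no filter. Over all TUs, 4019 were above and 5066 below when a level over 10 TPM in PRO-seq, and over 1 TPM in RNA-seq, was required, and 4207 were above for a 2-fold difference. By construction a new reference moves the zero point of every gene, and the other causes were not tested.

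With the replicate number as a block, 2 members were above and 1 below, TAPBP at -0.35, and 6329 TUs were above and 6435 below. FCGRT and NFYA were then not called (edgeR adjusted p of 0.107 and 0.0909). RNA-seq and PRO-seq replicates of the same number did not deviate together (r of -0.0022 across 12946 TUs), so the numbers do not pair the libraries. Leaving out TUs that share over 10% of their bases was added after seeing the data and changed no call of a member. Few counts limit NLRC5, HLA-F and the PRO-seq value of HLA-C.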
